A study of Mus musculus with 4 samples.

Results

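Keratin genes of type I and type II were examined for peaks of Slug and Snail, transcription factors of the Snail family that can switch on the epithelial-mesenchymal transition (EMT). The members were chosen by symbol, as RefSeq protein-coding genes named Krt followed by a number and at most 1 letter, and a peak was counted for a gene when it lay in the gene or within 10 kb of either end. The family was proposed with peak positions of these libraries already known, so the counts and scores below are a description. The rule found 53 keratin genes among 21887 protein-coding genes. They lay in 2 clusters, with 27 genes on chromosome 11 (the type I cluster) and 26 on chromosome 15 (the type II cluster, which also holds the type I gene Krt18).

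The study compared cells of mouse breast cancer lines from the MMTV-PyMT model, in which a mammary tumour virus promoter drives the polyoma middle T oncogene. The pBl.1G line is labelled epithelial with high Slug and was profiled by ChIP-seq using the rabbit monoclonal antibody C19G7, raised against Slug. The pBl.3G line is labelled mesenchymal with high Snail and was profiled with an antibody labelled Anti-SNAIL + SLUG, a name that covers both factors. Neither line was treated, and each factor has 1 library from 1 line. Factor, line and antibody changed together and cannot be told apart, and no test between them was possible. The 2 input DNA libraries have no peak list here and were not analysed. Peak lists hold no expression values, so the labelled cell types could not be checked against marker levels.

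Keratins are the intermediate filament proteins of epithelial cells. A type I keratin pairs with a type II keratin to build the filament, and the pair changes with the kind of epithelium. KRT8 and KRT18, with KRT19 and KRT7, are typical of simple epithelium and of the luminal cells of the mammary gland, whereas KRT5 and KRT14 mark basal and myoepithelial cells. Other members belong to the upper layers of stratified epithelium, to activated keratinocytes or to the sheaths and shaft of hair. Factors of the Snail family bind the E-box CAGGTG through their zinc fingers and are known mainly as repressors of epithelial genes.

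The promoters that a peak overlapped are shown first, since each of them held this E-box. RefSeq promoter windows (250 bases before to 50 after a start site, build GRCm38.p6, the assembly behind mm10) were given for 36 of the 53 genes, 37 windows in all. A Slug peak overlapped 2 windows (5.41%), those of Krt5 and Krt79, against 3.97% of windows over all protein-coding genes. Snail peaks overlapped 3 (8.11%), those of Krt7, Krt8 and Krt18, against 49.2%. The 250 bases before each of these 5 start sites are printed 5′ to 3′ along the transcribed strand, with every CAGGTG or its reverse complement CACCTG in capitals.
Krt5, chr15:101712906-101713155, minus strand: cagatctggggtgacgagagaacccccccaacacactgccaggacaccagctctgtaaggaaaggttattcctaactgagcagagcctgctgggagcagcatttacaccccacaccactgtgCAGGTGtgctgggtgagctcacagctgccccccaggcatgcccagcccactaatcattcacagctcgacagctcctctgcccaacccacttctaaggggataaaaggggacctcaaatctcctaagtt
Krt79, chr15:101940325-101940574, minus strand: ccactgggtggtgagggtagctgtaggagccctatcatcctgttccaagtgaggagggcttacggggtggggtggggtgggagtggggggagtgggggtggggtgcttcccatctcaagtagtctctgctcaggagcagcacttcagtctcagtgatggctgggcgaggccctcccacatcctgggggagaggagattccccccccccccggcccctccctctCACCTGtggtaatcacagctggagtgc
Krt7, chr15:101412153-101412402, plus strand: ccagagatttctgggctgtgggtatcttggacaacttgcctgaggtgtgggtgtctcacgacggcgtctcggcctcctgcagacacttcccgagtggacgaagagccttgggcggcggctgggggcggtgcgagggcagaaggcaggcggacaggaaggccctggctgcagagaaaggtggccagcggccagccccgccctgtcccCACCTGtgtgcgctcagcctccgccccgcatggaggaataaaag
Krt8, chr15:102004343-102004592, minus strand: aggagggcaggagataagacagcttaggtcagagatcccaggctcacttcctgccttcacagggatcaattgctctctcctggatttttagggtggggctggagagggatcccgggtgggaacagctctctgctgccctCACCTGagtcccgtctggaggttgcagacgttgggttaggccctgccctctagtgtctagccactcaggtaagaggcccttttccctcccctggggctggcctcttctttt
Krt18, chr15:102027966-102028215, plus strand: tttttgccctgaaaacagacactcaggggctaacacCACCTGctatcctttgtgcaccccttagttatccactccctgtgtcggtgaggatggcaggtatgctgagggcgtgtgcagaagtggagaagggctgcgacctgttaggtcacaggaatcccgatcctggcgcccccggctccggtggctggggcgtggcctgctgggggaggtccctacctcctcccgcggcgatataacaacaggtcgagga

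Each of the 5 stretches held 1 such E-box. In Krt5 it began 128 bp before the start site and lay 6 bp from the midpoint of the Slug peak, which spanned from 249 bp before to 10 bp after that site. The Krt79 E-box, 27 bp before the start, lay outside the Slug peak, which ended 168 bp before the start. Those of Krt7, Krt8 and Krt18 began 44, 111 and 214 bp before the start and lay inside Snail peaks, 77, 861 and 478 bp from the peaks' midpoints. These Snail peaks were 561, 5317 and 1298 bp wide, and only the Krt7 E-box lay within 100 bp of a midpoint.

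The E-box was not rare in the family as a whole. It was present in 15 of 37 keratin windows (40.5%) and in 19.7% of the 21263 windows of protein-coding genes. Over all protein-coding genes it was found in 39.4% of windows under a Slug peak, in 16.7% under a Snail peak and in 22.3% under neither. Another 10 keratin windows held it without a peak, those of Krt10, Krt23, Krt28, Krt39, Krt40, Krt71, Krt72, Krt77, Krt78 and Krt90. No window was given for Krt1, Krt4, Krt6a, Krt6b, Krt15, Krt16, Krt17, Krt19, Krt33a, Krt35, Krt80, Krt81, Krt83, Krt86, Krt87, Krt88 and Krt222. The windows of Krt10, Krt14, Krt36 and Krt78 begin at a start site inside the annotated span, at 8085, 1480, 3861 and 42337 bp from its end. Those of Krt2 and Krt12 do so at 787 and 334 bp. The outermost start of all these genes was thus not searched.

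**Figure D1:**
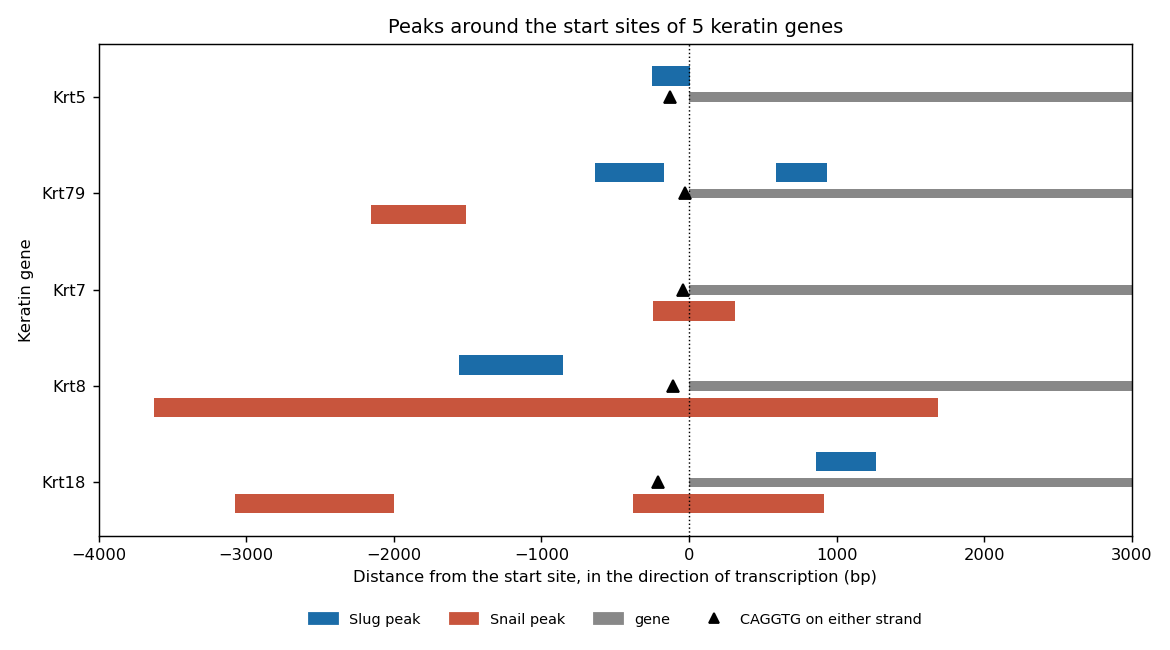
Positions of Slug peaks (blue) and Snail peaks (red) around the start sites of Krt5, Krt79, Krt7, Krt8 and Krt18, in bp along the direction of transcription; grey bars are genes and triangles the E-box CAGGTG on either strand. The Krt5 E-box sits in the middle of its Slug peak, and the Snail peak of Krt8 reaches from 3627 bp before to 1689 bp after the start.

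Over the family, the share of genes with a Slug peak was near that of other genes and the share with a Snail peak was lower. A Slug peak was counted for 32 of 53 keratin genes (60.4%), near the 56.4% of all protein-coding genes. A Snail peak was counted for 17 (32.1%) against 66.9%. Among the 13747 protein-coding genes whose spans fall in the keratin range of 2812 to 50624 bp, the shares were 53.1% for Slug and 71.9% for Snail. Both factors had a peak at 11 keratin genes (20.8%, against 44.9%), Slug alone at 21 (39.6%, against 11.5%), Snail alone at 6 (11.3%, against 22.1%) and neither at 15 (28.3%, against 21.6%). With 1 library for each factor these shares describe the lists, and neighbouring keratins often share a peak.

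Scores are given by the authors' peak caller and rank peaks within a list. They do not compare the strength of Slug with that of Snail. The keratin windows held 36 distinct Slug peaks with a median score of 96.6, against 81.1 in the whole list of 41612. They held 23 distinct Snail peaks with a median of 84.2, against 151 over 28375 peaks. With only scores of at least 100 counted, 16 keratin genes (30.2%) had a Slug peak, against 34.1% of all genes, and 10 (18.9%) had a Snail peak, against 61.3%. The highest score per gene, among genes with a peak, had a median of 106 at keratins and 130 at all genes for Slug, and of 153 and 727 for Snail. Fewer keratin genes than other genes thus had a Snail peak, and the median keratin Snail score was below that of its list.

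Close to the genes the keratin shares were below those of all genes for both factors. Within the gene or 1 kb of it, 13 keratin genes (24.5%) had a Slug peak, against 40.7% of all genes, and 8 (15.1%) had a Snail peak, against 60.0%. The Snail genes were Krt7, Krt8, Krt10, Krt18, Krt78, Krt80, Krt81 and Krt86. The Slug genes were Krt5, Krt8, Krt16, Krt17, Krt18, Krt32, Krt42, Krt72, Krt78, Krt79, Krt80, Krt82 and Krt88.

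**Figure D2:**
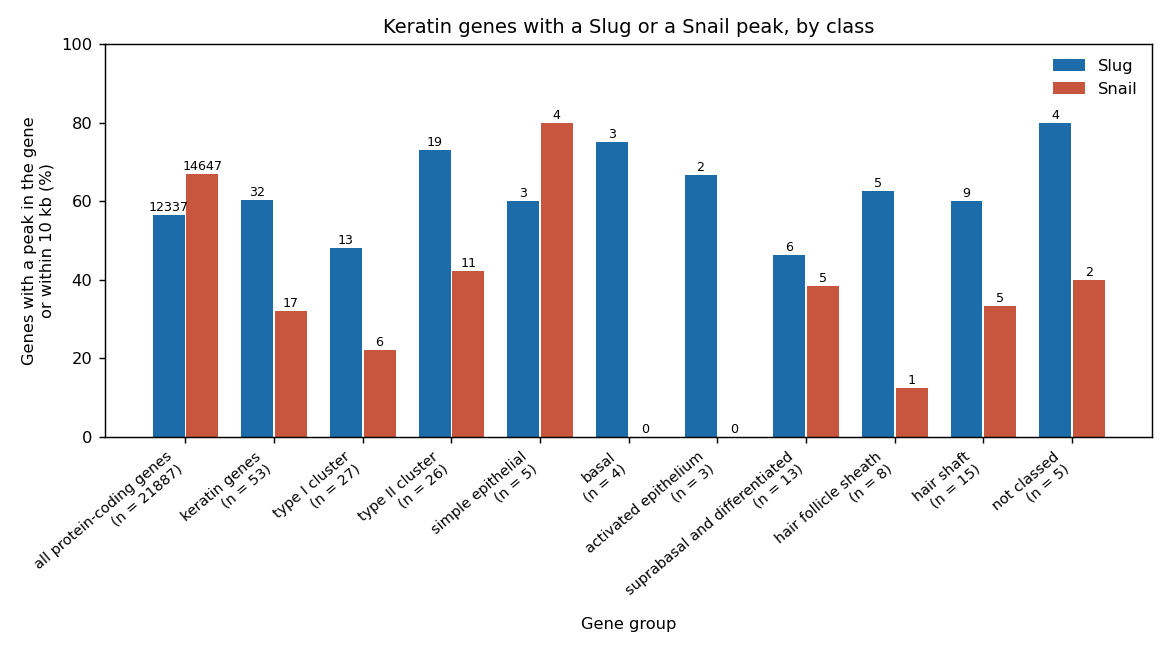
Percentage of genes with a Slug (blue) or Snail (red) peak in the gene or within 10 kb, for all protein-coding genes, all keratins, each cluster and each class; numbers over the bars are genes. Snail bars are below that of all genes (66.9%) in every group but the simple epithelial keratins (4 of 5), and are at 0 for basal and activated keratins.

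Simple epithelial keratins carried the highest Slug score and most of the sites that both factors marked. Of Krt7, Krt8, Krt18, Krt19 and Krt20, 4 had a Snail peak (80.0%, against 66.9% of all genes) and 3 a Slug peak (60.0%, against 56.4%). Krt20, a keratin of intestinal epithelium, had neither. Krt8 (chromosome 15, 101996711 to 102004342), the type II keratin of simple epithelium, had 1 Slug peak at 102005197 to 102005898 scoring 870, rank 312 of the Slug list. Its midpoint lay 1205 bp upstream of the start site. The Snail peak there, at 102002653 to 102007969 scoring 342, contained the whole Slug peak. At 5317 bp it was the 44th widest of all Snail peaks, and it ran across the start site. Krt8 had 2 further Snail peaks within 10 kb, with scores of 221 and 61.8.

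Krt18 (chromosome 15, 102028216 to 102032026), the type I partner of Krt8, had a Snail peak across its start site, at 102027834 to 102029131 scoring 463. The Slug peak, at 102029080 to 102029485 scoring 130, lay inside the gene with its midpoint 1066 bp downstream of the start, and shared 52 bp with the Snail peak. Snail peaks with scores of 52.0 and 53.4 lay on either side of the gene, close to the lowest score in the list, 50.

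Between the genes, 10864 bp from Krt18 at the nearest and so just outside its window, a Slug peak scoring 178 lay wholly inside a Snail peak scoring 202. The stretch from Krt8 to Krt18 thus held 3 shared sites. To the other side, the annotated span of Krt78, a keratin of stratified epithelium, reaches almost to Krt8 and is 50624 bp long, the longest of the family. It held Slug peaks with scores of 175, 190 and 669, the last at 101983055 to 101983500 and 28990 bp upstream of the start site in the promoter table. Snail peaks overlapped the same span, in 6 places, with scores from 55.5 to 221. The Snail peak scoring 141 began just past the end of the strongest Slug peak there, so these neighbours were not counted as shared.

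**Figure D3:**
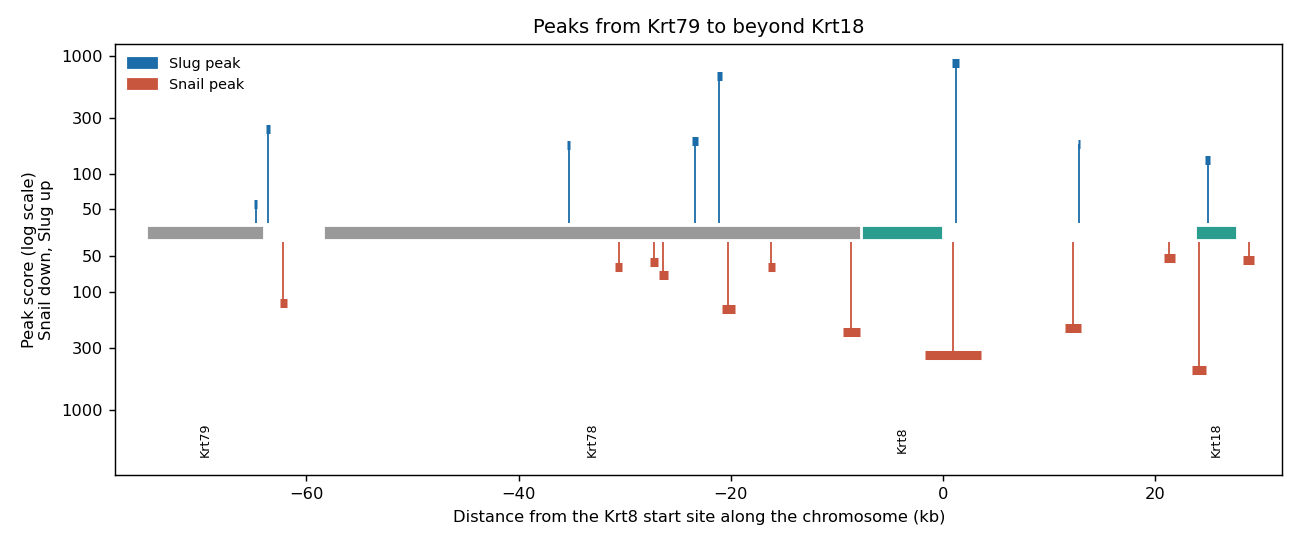
Slug peaks (blue, upward) and Snail peaks (red, downward) from Krt79 to beyond Krt18, by distance along the chromosome from the Krt8 start site in kb; horizontal strokes show peak width at the height of the score (log axis) and bars on the centre line are genes, Krt8 and Krt18 in green. The highest Slug peak (870) and the widest Snail peak of the stretch (5317 bp) coincide beside Krt8.

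Krt19 (chromosome 11, 100140810 to 100145926), a luminal type I keratin, had the only shared site at a keratin of the type I cluster. A Slug peak at 100147303 to 100147512 scoring 81.3, close to the list median, lay inside a Snail peak at 100147228 to 100148128 scoring 155. The pair was 1377 bp beyond the gene for Slug and 1302 bp for Snail. Krt7 (chromosome 15, 101412403 to 101427806), a luminal type II keratin, had a Snail peak across its start site at 101412158 to 101412718 scoring 153 and no Slug peak within 10 kb.

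Basal keratins had Slug peaks and no Snail peak. Of Krt5, Krt14, Krt15 and Krt17, 3 had a Slug peak, against 56.4% of all genes, and Krt15 had neither. The Snail count was 0 of 4, against 66.9% of all genes and 32.1% of the 53 keratin genes. Krt5 (chromosome 15, 101707069 to 101712905), the type II keratin of basal cells, had 3 Slug peaks. The one over the start site, at 101712895 to 101713154, scored 61.6, below the list median of 81.1. A second lay inside the gene at a score of 83.1, and the highest, 120, lay 8430 bp from it at 101698274 to 101698639, nearer to Krt6a. Krt14 (chromosome 11, 100203162 to 100207510), its type I partner, had 1 Slug peak at 100209737 to 100210168 scoring 187, 2227 bp beyond the high-coordinate end. Krt17, a keratin of basal and myoepithelial cells and of hair follicles, had Slug peaks with scores of 52.4 and 76.1 at 106 and 1334 bp from the gene, both of which also fell in the window of Krt42.

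The longest stretch of the type II cluster without a Snail peak ran for 265 kb, from 101507557 to 101772767, and wholly contained Krt84, Krt82, Krt90, Krt75, Krt6b, Krt6a, Krt5 and Krt71. Slug peaks lay inside it near Krt84, Krt82, Krt90, Krt6a, Krt5 and Krt71. The cluster's longest stretch without a Slug peak, 151 kb from 101547346 to 101698273, also lay within it. That stretch wholly contained Krt90, Krt75, Krt6b and Krt6a. In the type I cluster the longest stretches without a peak were 226 kb for Slug and 200 kb for Snail. A small number of genes limits what the counts by class show. The 8 keratins of mammary epithelium were Krt5, Krt7, Krt8, Krt14, Krt15, Krt17, Krt18 and Krt19. Of these 8 genes, 6 were near a Slug peak, above the 56.4% of all genes. Only 4 were near a Snail peak, a share below the 66.9% of all genes. The 4 with a Snail peak were the luminal ones.

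Activated keratins, which keratinocytes induce on wounding, had Slug peaks at 2 of 3 genes (66.7%, against 56.4% of all genes). Krt16 had a Slug peak at chromosome 11, 100245346 to 100245608, scoring 215 and 483 bp from the gene. Krt6a shared with Krt5 the Slug peak scoring 120, which lay 3969 bp from Krt6a. Krt6b had no peak, and none of the 3 had a Snail peak, against 66.9% of all genes.

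Keratins of the suprabasal and differentiated layers were mixed. Of 13 genes 6 were near a Slug peak (46.2%, against 56.4% of all genes) and 5 near a Snail peak (38.5%, against 66.9%). Krt80 (chromosome 15, 101348315 to 101370162), expressed in differentiating epithelium, had 4 Slug and 2 Snail peaks, and its highest Snail score, 288, lay 9720 bp from the gene. Slug peaks with scores of 226 and 116 at its high-coordinate end lay inside 1 Snail peak scoring 79.4, at 101369716 to 101370859. Krt79, of sebaceous and follicular epithelium, had a Slug peak just upstream of its start (score 242, at 101940492 to 101940960), another inside the gene (55.3) and a Snail peak scoring 125 centred 1832 bp upstream. Krt76, a keratin of oral epithelium, had a Slug peak scoring 297 at 4358 bp from the gene. Krt2 and Krt24 had low Slug peaks, at 59.5 and 72.2, and that of Krt2 also fell in the window of Krt73.

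Snail without Slug marked Krt10 and Krt13 in this class. Krt10, the type I partner of Krt1 in epidermis, had a Snail peak scoring 574 inside the gene at chromosome 11, 99385738 to 99386820, the highest-scoring Snail peak inside any keratin. Its midpoint was 3085 bp downstream of the start site in the promoter table. Krt13, of mucosal epithelium, shared a Snail peak scoring 66.2 with Krt36. Krt1, Krt4, Krt9, Krt12 and Krt77 had no peak.

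Of the Slug peaks at hair follicle sheath keratins only that of Krt71 scored above the list median of 81.1. Of 8 genes 5 had a Slug peak (62.5%, against 56.4% of all genes). Scores were 129 for Krt71, 79.3 for the peak that Krt27 and Krt28 share, 59.5 for Krt73 and 54.4 for Krt72. The one Snail peak, near Krt72 (12.5% of the class, against 66.9% of all genes), scored 72.9. Krt25, Krt26 and Krt75 had none.

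Hair shaft keratins, which build the hair fibre, had Slug peaks at 9 of 15 genes and Snail peaks at 5. The share with a Slug peak, 60.0%, was near that of the family (60.4%) and of all genes (56.4%). The share with a Snail peak was 33.3%, against 66.9% of all genes. The highest Slug score was 496, at chromosome 11, 100004500 to 100004878, 6321 bp from Krt33a and rank 1105 of the list. Others were 285 inside Krt82, 194 between Krt81 and Krt86, 91.2 near Krt87, 59.2 at Krt32 and Krt35, 54.2 near Krt39 and 53.8 near Krt84. Snail scored 170 near Krt31, above the list median of 151, and below it 84.2 near Krt83, 66.9 near Krt81, 66.2 near Krt36 and 53.8 near Krt86. Krt33b, Krt34 and Krt40 had no peak. Krt81, Krt83 and Krt86 are close copies of each other, and how reads matching several places were treated is not given in the sources used here.

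Of the 5 genes put in no class, Krt222 had the highest Snail score of any keratin, 914 at chromosome 11, 99230030 to 99231256. Its highest Slug score was 68.8. The Snail peak lay 1505 bp from Krt222 and overlapped the neighbouring gene Smarce1, which encodes a chromatin remodelling subunit. The Slug peak of that score lay 7480 bp from Krt222 and also overlapped Smarce1. Krt88 had a Slug peak of 91.2 inside the gene, the one given above for Krt87, and the Snail peak of 66.9 given for Krt81. Krt90 and Krt42 had Slug peaks at 285 and 76.1, and Krt23 had none. The Krt90 peak is the one inside Krt82, and that of Krt42 is shared with Krt17.

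**Figure D4:**
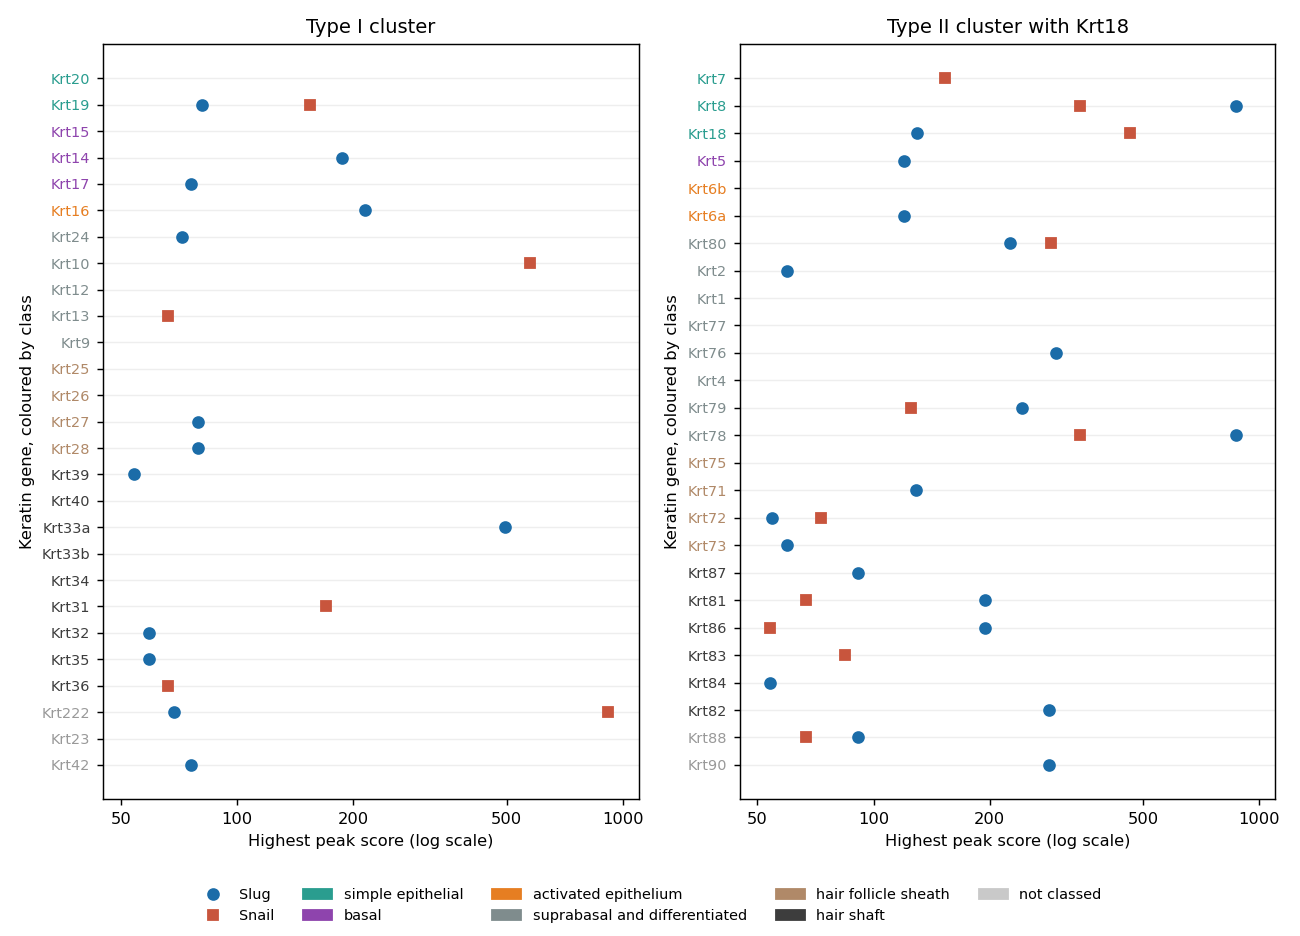
Highest Slug score (blue circles) and highest Snail score (red squares) of each keratin gene, on a log axis, for the type I cluster (left) and the type II cluster with Krt18 (right); genes are coloured and ordered by class, and an empty row means no peak within 10 kb. Slug reaches 870 at Krt8 and Krt78, which share that peak, and Snail 914 at Krt222.

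For both factors the share of genes with a peak was higher in the type II cluster, a difference with no replicate behind it. In the type I cluster 13 of 27 genes (48.1%) lay near a Slug peak and 6 (22.2%) near a Snail peak. In the type II cluster these were 19 of 26 (73.1%) and 11 (42.3%). Over all protein-coding genes the shares were 56.4% for Slug and 66.9% for Snail. The Slug share was thus below that of all genes in the type I cluster and above it in the type II cluster. The Snail share was below that of all genes in both. Peaks were also counted over each whole cluster, from 10 kb before its first to 10 kb after its last keratin gene. The type I cluster, 1.06 Mb with 65 protein-coding genes of which 23 are Krtap genes for hair keratin-associated proteins, held 25.5 Slug peaks per Mb, against 21.5 on the rest of chromosome 11. It held 14.2 Snail peaks per Mb against 17.6. The type II cluster, 0.704 Mb with 27 protein-coding genes, held 36.9 Slug peaks per Mb against 16.4 on the rest of chromosome 15, and 31.3 Snail peaks per Mb against 12. Over both clusters the Slug density was 30.1 per Mb and the Snail density 21.0, against 19.2 and 15 on the rest of both chromosomes. Gene density on the rest of each chromosome is not given here, so these densities do not allow for how closely genes are packed. Counting only scores of at least 100 turned the Snail comparison round, at 9.09 against 9.76 per Mb, while Slug stayed higher at 13.1 against 7.84.

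**Figure D5:**
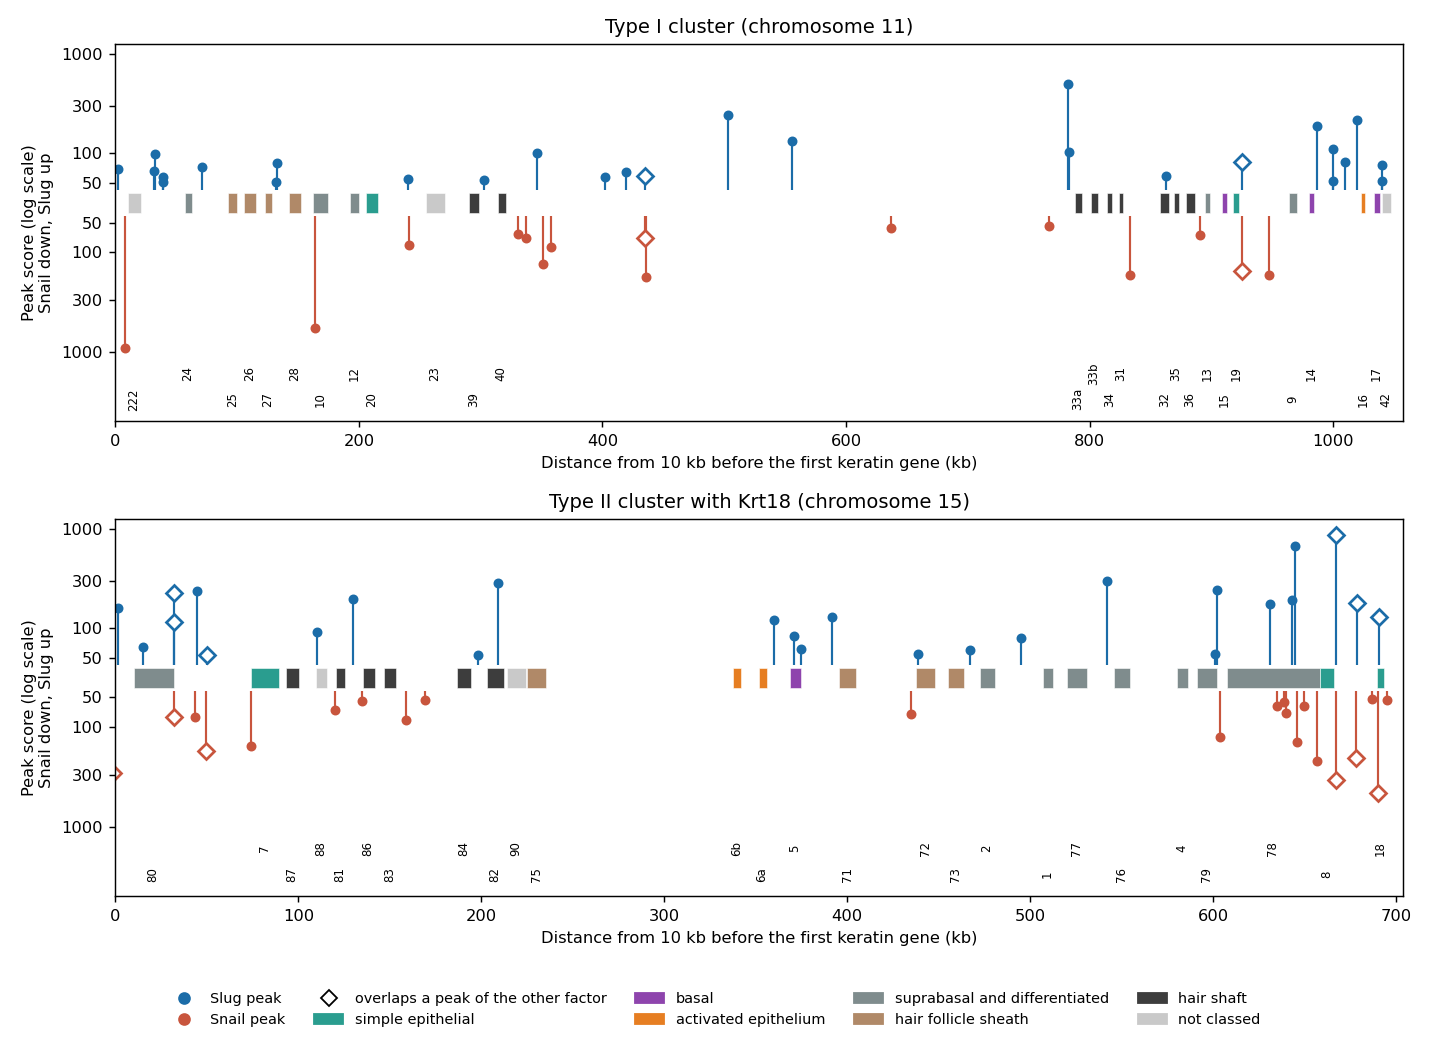
Slug peaks (up) and Snail peaks (down) across the type I cluster (top) and the type II cluster (bottom), by distance in kb from 10 kb before the first keratin gene; height is the score on a log axis, boxes are keratin genes coloured by class with their numbers below, and open diamonds overlap a peak of the other factor. The densest part is the right end of the type II cluster around Krt78, Krt8 and Krt18.

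Shared sites made up a share of the keratin peaks near that of the whole lists. Of the 36 Slug peaks at keratin genes 5 (13.9%) overlapped a Snail peak, against 12.1% of the whole Slug list, and 5 of 23 Snail peaks (21.7%) overlapped a Slug peak, against 16.6%. The shared Slug peaks were those of Krt8, Krt18 and Krt19 and the pair at Krt80. Peaks just inside and outside the 10 kb limit show how the window acted: Krt222 kept a Slug peak at 9997 bp scoring 66.2 and not one at 10783 bp scoring 98.6. A Slug peak scoring 297 was counted for Krt76 and not for Krt77, from which it lay 10056 bp away.

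Lists of plakin, desmosome and other intermediate filament genes were read against the same shares of all protein-coding genes, 56.4% for Slug and 66.9% for Snail. The plakins, which tie filaments to junctions and other parts of the cytoskeleton, had peaks of both factors at 7 of 7 genes, against 44.9% of all genes. Among them Evpl (envoplakin) and Dst had the highest Slug scores, 521 and 431, and Dsp (desmoplakin) and Macf1 the highest Snail scores, 1043 and 987. These genes are long, Dst and Macf1 above all, so windows of unequal size stand behind the counts. Of 6 desmosome genes 5 had a Slug peak (83.3%), and the 4 with a Snail peak (66.7%) were at the background. The highest scores were those of Jup (plakoglobin) and Pkp1 for Slug at 220 and 165, and those of Pkp1 and Pkp2 for Snail at 1405 and 830. Of 13 other intermediate filament genes 9 (69.2%) were near a Slug peak, and 9 were near a Snail peak, a share close to the background. Des (desmin) and Lmna scored highest for Slug, at 316 and 210, and Lmnb1 and Lmnb2, lamins of the nuclear envelope, for Snail, at 1239 and 981.

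Of 14 regulators of keratin expression 13 (92.9%) were near a Slug peak, against 56.4% of all genes. The 9 near a Snail peak (64.3%) were close to the 66.9% of all genes. Some of the regulators are long, Trp63, Grhl2 and Lef1 above all, so windows of unequal size stand behind these counts too. Foxn1, a factor of hair and skin differentiation, and Grhl3 had the highest Slug scores, 553 and 404, and Sp1 and Tfap2a the highest Snail scores, 1122 and 1107. Trp63, which encodes the basal cell factor p63, had 4 Slug peaks, the highest at 130, and no Snail peak. Among the basal and myoepithelial markers Krt5, Krt14, Krt17, Trp63 and Acta2, 4 had a Slug peak (80.0%, against 56.4% of all genes). Acta2, smooth muscle actin, had none, and the Snail count was 0 of 5, against 66.9% of all genes. Of the luminal markers Krt7, Krt8, Krt18, Krt19, Epcam and Cdh1, 6 of 6 had a Snail peak (100%, against 66.9%). A Slug peak was found at 5 of them (83.3%, against 56.4%). The keratins in both marker lists are the same genes already counted above. The Snail peak of Epcam scored 50.7, close to the lowest score in the list, 50. The mesenchymal markers Vim, Cdh2 and Fn1 also had peaks of both factors, at 3 of 3, against 44.9% of all genes. Their highest Snail scores were 921, 990 and 1159, so Snail peaks were not particular to luminal markers.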

How the data were processed

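The files used here are 2 peak lists deposited by the authors, 1 for the Slug ChIP library of pBl.1G and 1 for the Snail ChIP library of pBl.3G. Cells were fixed in 1% formaldehyde and sonicated to fragments between 200 and 500 bp long, per the labels' protocols. The tools were Bowtie and MACS 1.4.2 and the build was mm10, per the submitters' processing notes. For settings, read depth, controls and the scale of the score, the sources used here give nothing. The authors' deposited rows give a position and a score of the peak, which depends on depth and control, and the lowest score is 50 in both lists.

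Starts were converted to 1-based positions. Genes, spans and promoter windows came from RefSeq tables of GRCm38.p6, and no genome sequence was used. A gene had a peak when its span plus 10 kb on each side overlapped one by at least 1 bp. Peaks were shared at an overlap of 1 bp or more. Background shares are over all 21887 protein-coding genes. E-boxes were found by exact match to CAGGTG or CACCTG in windows of 300 bases, so both strands were searched. No test was run, since each factor has 1 library. The counting code was checked on placed peaks of known position. Alternatives changed the window, the lowest score, the number of peaks, the use of midpoints, the gene a peak belongs to, the overlap and the cluster limits.

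The members, classes and lists were chosen with earlier results of these data known. Named are the 8 mammary keratins, the members of each class with and without a peak, and the 2 top genes of the other lists by each factor. Krt74, a transcribed pseudogene in this annotation, is no member, and Krt85 was not analysed here. Python 3.11.15, numpy 2.4.6, pandas 2.3.3 and matplotlib 3.10.9 were used.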

Additional observations from a re-analysis of the deposited data

How the results depend on the processing

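Counts depend most on the window. Within 1 kb, keratin genes with a Slug peak, a Snail peak, both and neither numbered 13, 8, 4 and 36, and in the gene body alone 9, 6, 3 and 41. Within 25 kb, Snail, both and neither came to 32, 28 and 1, and Slug to 48. A score of at least 100 gave 16, 10, 5 and 32. Over all protein-coding genes, the 1 kb window gave 40.7% for Slug and 60.0% for Snail, and that score gave 34.1% and 61.3%. Shares of all genes are not given for the gene body, 25 kb or the other alternatives, nor for both and neither. How keratin counts compare with all genes there was not tested. In both narrower windows and at that score Slug counts stayed above Snail counts, as they did in the other alternatives. Equal numbers of peaks, midpoints and giving each peak to its nearest gene kept these counts within 1.5 times of those reported (32, 17, 11 and 15). Shared Slug peaks fell from 5 to 2 at that score and to 0 with a reciprocal overlap of 50%, where peaks of very different width cannot pair. Densities at that score were 13.1 Slug and 9.09 Snail peaks per Mb. The wider E-box CANNTG was found in 30 of 37 keratin windows (81.1%), against 69.0% of the windows of all protein-coding genes. No depth was given, so a missing peak was only not detectable at the depth of its library. No paired analysis was possible because each factor has 1 library.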

Other observations

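Inside the clusters some peaks lay more than 10 kb from any keratin gene. In the type I cluster these were 13 Slug and 10 Snail peaks, many of them among the Krtap genes that separate Krt40 from Krt33a. The highest Slug score there was 245, at chromosome 11, 99725799 to 99726000, 45714 bp from the nearest protein-coding gene, Gm11595. A shared site of low score lay near Gm11563, with 58.6 for Slug at 99657503 to 99657661 and 72.1 for Snail. Of the 23 Krtap genes on chromosome 11, 8 (34.8%) were near Slug peaks and 10 (43.5%) near Snail peaks by the same 10 kb rule, below the 56.4% and 66.9% of all protein-coding genes, the highest Snail score being 175 at Krtap4-6. Over all 56 Krtap genes, which also lie on other chromosomes, 19 (33.9%) had a Slug and 10 (17.9%) a Snail peak.

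In the type II cluster, the interval between Krt80 and Krt7 held a Slug peak with a score of 235 at chromosome 15, 101382859 to 101383276, 12697 bp from Krt80. Next to it a Slug peak with a score of 53.2 overlapped a Snail peak with a score of 172 by 149 bp. The pseudogene Krt74 had 1 Snail peak within 10 kb, the one with a score of 72.9 that also belongs to the window of Krt72, and no Slug peak.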
